A study of Mus musculus with 4 samples.

Results

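The miR-181 family was read by 2 TaqMan assays, mmu-miR-181a and mmu-miR-181c, among 375 microRNA assays read in all 4 samples of a survey of whole mouse embryos. Both were picked by name from the assay panel because their levels were lower in embryos lacking ER-alpha, the alpha form of the estrogen receptor and the product of Esr1, so that difference is given below as a description, with no p-value of their own. The samples were 2 ER-alpha knockout and 2 wild-type whole embryos, all of strain C57BL/6 at E18.5, shortly before birth. The knockout allele, the sex of the embryos, and the number of embryos in each sample are not given in the sources used here. Total RNA was the input and only small RNAs were assayed. The messenger RNA of the deleted receptor was not analysed here.

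MicroRNAs of the miR-181 family guide Argonaute to messenger RNAs that pair with their seed, the bases near the 5′ end that set target choice. In the mouse, miR-181a is best known in the thymus, where it raises the sensitivity of developing T cells to antigen by lowering phosphatases that dampen receptor signalling, and the family is also abundant in brain. In mouse myoblasts miR-181 rises on differentiation and represses the homeobox gene Hoxa11.

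The mature sequences are shown because the members share a seed and are otherwise almost the same. The sequences are from RefSeq, build GRCm38.p6. Both panel names, which carry no arm, were matched to the 5p arm. Capitals mark the seed, bases 2 to 8.
mmu-miR-181a-5p: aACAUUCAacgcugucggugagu
mmu-miR-181c-5p: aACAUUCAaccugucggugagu
mmu-miR-181b-5p: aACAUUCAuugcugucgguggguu
mmu-miR-181d-5p: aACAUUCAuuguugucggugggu

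The first pair is on the panel as read here. Mature miR-181a has 23 bases and miR-181c has 22, and removing the base at position 11 of miR-181a, counted from 1 at its 5′ end, gives miR-181c. They share their first 10 bases and are 1 edit apart, whereas miR-181a is 4 edits from miR-181b and 4 from miR-181d. No other panel assay was named for this family, so miR-181b and miR-181d were not analysed here. How far each assay reads the other member's RNA was not tested.

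The assay for miR-181a cannot tell its 2 source genes apart, because both hairpins hold the same mature sequence, shown in capitals.
Mir181a-1 hairpin: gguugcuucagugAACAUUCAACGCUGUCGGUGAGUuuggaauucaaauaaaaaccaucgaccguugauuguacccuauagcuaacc
Mir181a-2 hairpin: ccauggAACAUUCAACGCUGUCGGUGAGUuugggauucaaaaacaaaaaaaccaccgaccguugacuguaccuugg

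In GRCm38.p6 the mature miR-181a lies at chr1:137966468-137966490 on the plus strand for Mir181a-1 and at chr2:38852741-38852763 on the plus strand for Mir181a-2. The Mir181a-2 locus falls inside the annotated spans of Nr6a1, which encodes an orphan nuclear receptor, and of the antisense gene Nr6a1os. Mature miR-181c lies at chr8:84178924-84178945 on the minus strand, and neither Mir181c nor Mir181a-1 falls inside another annotated gene. Each gene has a family partner beside it. Mir181b-1 is 97 bases from Mir181a-1, Mir181b-2 is 1019 bases from Mir181a-2, and Mir181d is 85 bases from Mir181c.

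Each well gave a threshold cycle (Ct), the PCR cycle at which signal crosses a threshold, which is earlier the more RNA there is. A step of 1 cycle was taken as 1 log2 unit. At a Ct of 35 or lower, taken as detected, 260 and 259 microRNAs were detected in ER-alpha knockout replicates 1 and 2, against 290 and 254 in wild-type replicates 1 and 2. In all 4 samples 229 were detected. These, both family members among them, entered the fit across the panel and are called tested below. The sample that differed most from the rest was wild-type replicate 1: over the 229 assays, which are not independent replicates, its Pearson correlation with each of the other 3 was 0.939 to 0.954, against 0.978 to 0.989 among those 3. After subtraction of the constant 0.273 that all its wells but U6 carry, 90.0% of the wells that amplified were no more than 0.1 cycle from a whole number. Its wells for mmu-miR-181a and mmu-miR-181c lay 0.015 and 0.084 cycles from one. In the other 3 samples 21.0% to 26.5% of wells lay that close. The family's fold changes are therefore also given without it. All 13 assays for microRNAs typical of muscle, liver, brain, endothelium, epithelium and blood were detected in all 4 samples, and 0 of 9 pluripotent or placental assays were. Of those 9, mmu-miR-291a-3p, mmu-miR-292-3p and mmu-miR-295 were detected in 3 samples, all but wild-type replicate 1, at Ct values of 32.18 to 34.99. Another of them, mmu-miR-302c, was detected in wild-type replicate 1 alone, at an earlier Ct of 29.45.

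The assay for mmu-miR-181a had Ct values of 30.14 and 29.63 in ER-alpha knockout replicates 1 and 2, against 29.26 and 28.78 in wild-type replicates 1 and 2. Both knockout samples came up later than both wild-type samples, and the 4 values lay within 2 cycles. By mean Ct over all samples (29.5) it was the 155th earliest of the 229 assays, so it sat in the later part of the detected range but at least 4.86 cycles short of the detection limit.

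The assay for mmu-miR-181c had Ct values of 33.94 and 34.01 in knockout replicates 1 and 2, against 32.19 and 32.97 in wild-type replicates 1 and 2. Again both knockout samples were later than both wild-type samples. This assay was among the last detected, 223rd of 229 by mean Ct (33.3), and knockout replicate 2 was 0.987 cycles short of the limit, so its levels are less certain. Each microRNA had 1 well per sample, so no spread between wells is known for either member.

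To compare samples, each Ct was set against the median Ct of the 229 assays of its sample, and the level is minus that difference in log2 units. Levels of mmu-miR-181a were -1.95 and -1.81 in ER-alpha knockout replicates 1 and 2, against -0.02 and -1.42 in wild-type replicates 1 and 2. The groups did not overlap, but the highest knockout value was only 0.39 below the lowest wild-type value. The mean level was -1.88 ± 0.10 in knockout and -0.72 ± 0.98 in wild-type embryos (SD, n = 2 each), a log2 fold change of -1.16, or 0.448-fold. The knockout replicates were 0.14 apart and the wild-type replicates 1.39 apart. With this centring the genotype difference was therefore smaller than the spread within wild-type. In a whole-embryo RNA sample, fewer cells that make a microRNA and less of it per cell cannot be told apart.

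Levels of mmu-miR-181c were -5.75 and -6.19 in knockout replicates 1 and 2, against -2.96 and -5.61 in wild-type replicates 1 and 2. Wild-type replicate 2 was 0.15 above knockout replicate 1, and wild-type replicate 1 was far above the other 3 samples. The mean level was -5.97 ± 0.31 in knockout and -4.28 ± 1.87 in wild-type embryos (SD, n = 2 each), a log2 fold change of -1.69, or 0.310-fold. The wild-type replicates were 2.65 apart, again more than the genotype difference with this centring. From highest to lowest level the samples ran wild-type replicate 1, wild-type replicate 2, then the knockout samples for both microRNAs. The order of the 2 knockout samples was opposite for the members. By Ct, wild-type replicate 2 was the earliest for mmu-miR-181a, at 28.78 against 29.26 in wild-type replicate 1.

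**Figure D1:**
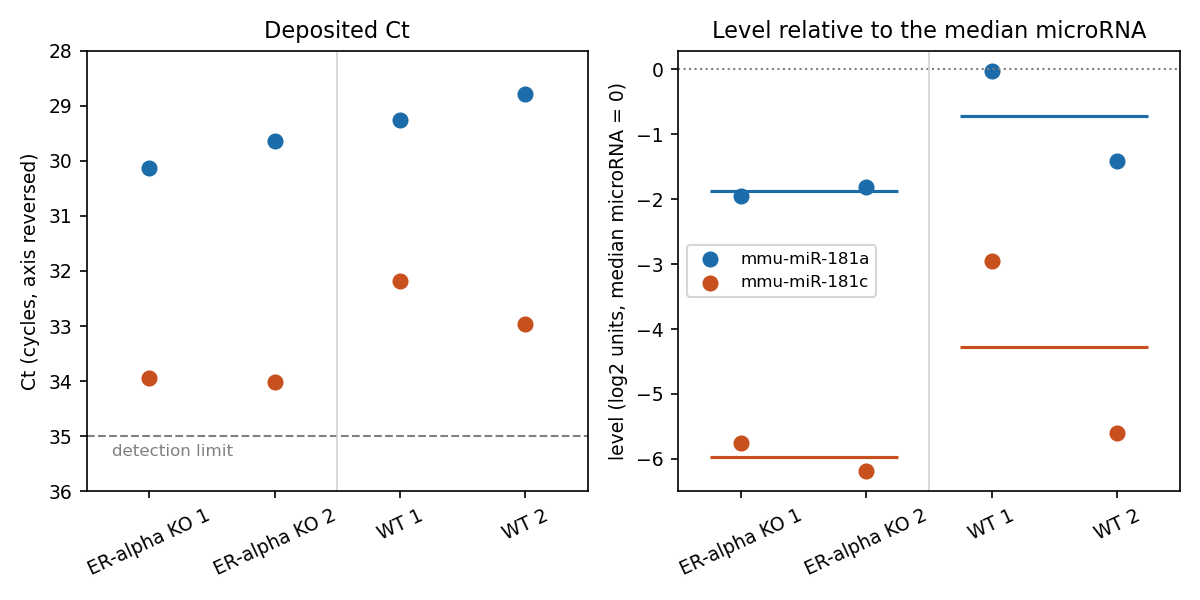
Deposited Ct (left, cycles, axis reversed so that more RNA is up) and level relative to the median microRNA (right, log2 units) of mmu-miR-181a and mmu-miR-181c in each sample. Points are samples and short lines are group means. Both knockout samples lie below both wild-type samples, with wild-type replicate 1 furthest up in level.

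Across the whole panel, limma called 0 of the 229 microRNAs at an adjusted p of 0.05 (0%), so 0 of the 2 family members passed, and 10 of 229 had an unadjusted p under 0.05 (4.37%). The standard error, common to all assays, was 0.64 log2 units. With each assay's own variance it was 0.70 for mmu-miR-181a and 1.34 for mmu-miR-181c. The median log2 fold change of all 229 assays was 0.26, and against it mmu-miR-181a stood at -1.42 and mmu-miR-181c at -1.95. They were the 8th and the 2nd lowest fold changes of the 229. Both knockout levels lay below both wild-type levels for 14 of the 229 assays (6.11%) and above them for 76 (33.2%). Both family members were among the 14, which their selection for a lower level favours.

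**Figure D2:**
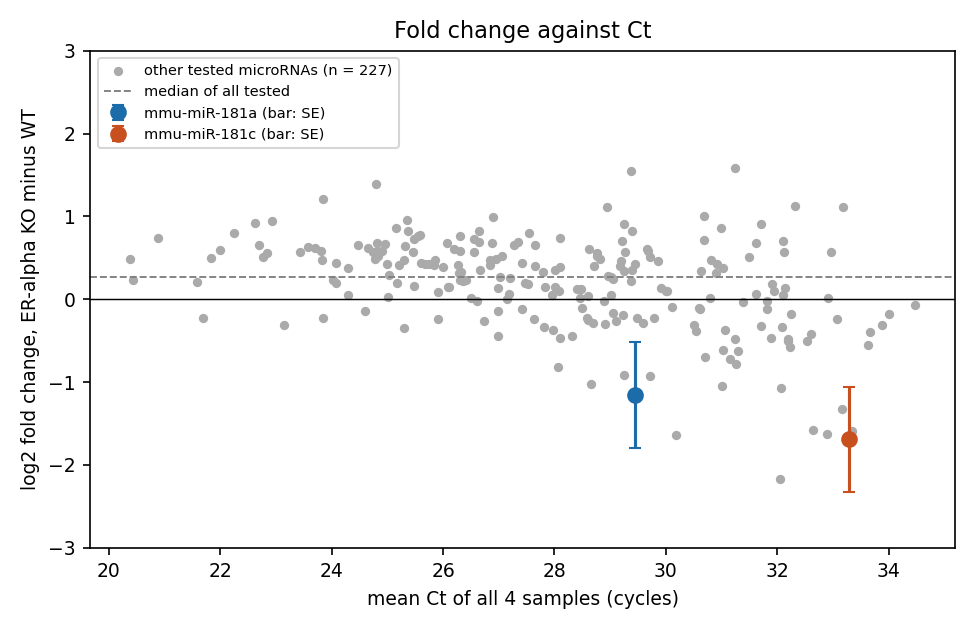
Log2 fold change of ER-alpha knockout over wild-type (y axis) against mean Ct of all 4 samples (x axis, cycles) for the 229 tested microRNAs. Bars on the family members are the standard error common to all assays, not one from their own replicates. The members, at -1.16 and -1.69, lie near the lower edge of the cloud, below the median of 0.26 drawn as a dashed line.

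The size of the difference depended on which wild-type sample was used. Without wild-type replicate 1, and with the median taken anew over the 241 microRNAs detected in the other 3 samples, the log2 fold change was -0.79 for mmu-miR-181a and -0.70 for mmu-miR-181c. They were then the 19th and the 23rd lowest of 241, at -0.76 and -0.67 relative to the median of all assays. Without wild-type replicate 2 the fold changes were -1.74 and -2.90. The mmu-miR-181c value thus moved by over 2 log2 units with the choice of wild-type sample, and neither member turned positive.

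The wild-type replicates lay far apart for miR-181c. A high value in either wild-type sample lowers the fold change by which the members were chosen, so a wide gap is favoured by that choice and the counts are a description only. The gap between the wild-type replicates was larger for only 4 of the 229 assays than for mmu-miR-181c, and for 33 than for mmu-miR-181a, while the median gap of all assays was 0.59 log2 units. Between the knockout replicates, 114 assays had a larger gap than mmu-miR-181c and 202 had a larger one than mmu-miR-181a, and the median gap was 0.44. In the order of Ct within a sample, mmu-miR-181c was 225th and 224th of 229 in knockout replicates 1 and 2, against 182nd and 223rd in wild-type replicates 1 and 2. The place of mmu-miR-181a was 168th and 162nd in the knockout samples, against 128th and 150th in wild-type replicates 1 and 2.

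Other late assays were set beside mmu-miR-181c, whose mean Ct in the 3 samples other than wild-type replicate 1 was 33.6. The detection limit in wild-type replicate 1 removes late assays that were low there, so every assay that amplified in those 3 samples was used, tested or not. Within 1 cycle of mmu-miR-181c lay 34 such assays, and their level in wild-type replicate 1 exceeded the mean of the other 3 samples by a median of 0.65 log2 units, with 21 of 34 above 0. The filter mattered: 10 of the 11 tested assays and 11 of the 23 untested ones were above 0. The excess of mmu-miR-181c was 2.89, and 5 of the 34 were above it.

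Within 1 cycle of mmu-miR-181a, at a mean Ct of 29.5 in the same 3 samples, lay 44 assays, all of them tested. Their median excess in wild-type replicate 1 was -0.15, from -1.58 to 1.96, and 19 of the 44 were above 0. The excess of mmu-miR-181a was 1.70, and 1 of the 44 was above it. Since the excess sets a wild-type sample against both knockout samples among others, a high place of either member is favoured by the choice of members and is no separate evidence. Cyclic loess normalization, added after seeing the data, removes differences between samples that depend on the Ct. With it the log2 fold change of mmu-miR-181c was -1.56 and that of mmu-miR-181a was -1.32, both with wild-type replicate 1 included.

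**Figure D3:**
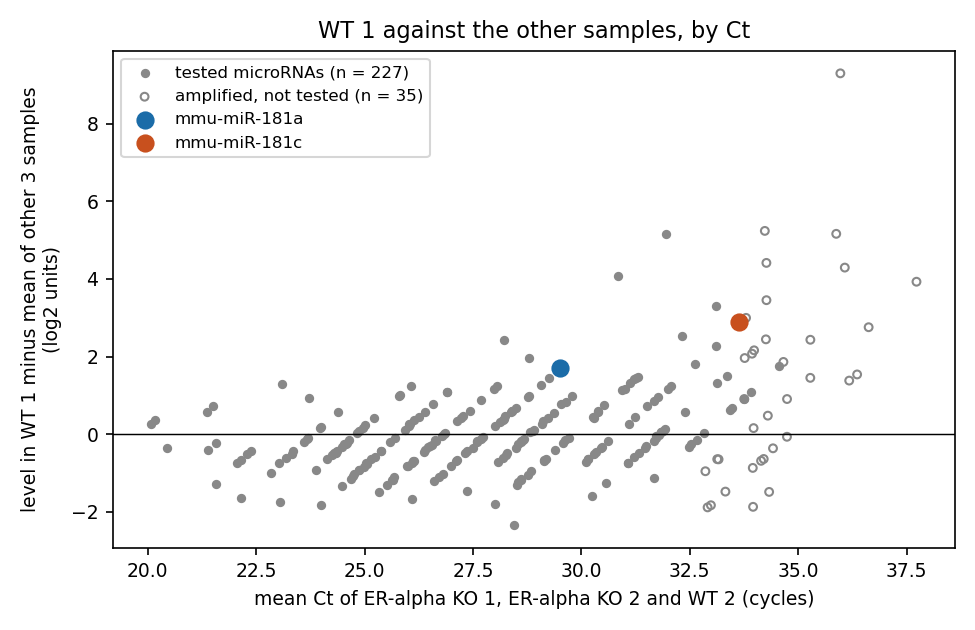
Level in wild-type replicate 1 minus the mean level of the other 3 samples (y axis, log2 units) against mean Ct of those 3 samples (x axis, cycles), 1 point per microRNA that amplified in all samples; filled points were tested and the 35 open points were over the Ct limit in at least 1 sample. Assays near mmu-miR-181c scatter on both sides of 0, 21 of 34 above it, and so do those near mmu-miR-181a, 19 of 44 above it. The oblique stripes are the near whole-cycle Ct values of wild-type replicate 1.

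The family members were also set against snoRNA135, snoRNA202, U87, Y1 and MammU6, the 5 small RNAs that serve as controls on the panel, so that no microRNA is the yardstick. The log2 fold change of mmu-miR-181a ranged from -1.14 with snoRNA202 to -0.28 with Y1, and that of mmu-miR-181c from -1.68 with snoRNA202 to -0.82 with Y1. Knockout and wild-type samples did not overlap with 4 of the 5 controls for mmu-miR-181a and with 3 of the 5 for mmu-miR-181c. The share of all assays without overlap was not computed with each control. The members were chosen for a lower level, so these counts are a description only. Without wild-type replicate 1 the fold changes ran from -1.74 with U87 to -0.31 with Y1 for mmu-miR-181a, and from -1.64 with U87 to -0.21 with Y1 for mmu-miR-181c. The direction was therefore the same with every control, which the choice of the members favours, and the size was not. For mmu-miR-181a, wild-type replicate 2 was above wild-type replicate 1 with MammU6, U87 and Y1, and below it with snoRNA135 and snoRNA202. With MammU6 the fold change of mmu-miR-181a was -1.10, and -1.25 without wild-type replicate 1. U87 itself varied within genotypes, with Ct values of 26.08 and 28.26 in knockout replicates 1 and 2, against 26.26 and 27.80 in wild-type replicates 1 and 2. Against the mean of the 5 controls, levels of mmu-miR-181a were -5.84 and -5.19 in knockout replicates 1 and 2. They were -4.65 and -4.61 in wild-type replicates 1 and 2, closer together than the fold change of -0.88. Levels of mmu-miR-181c were -9.64 and -9.57, against -7.59 and -8.80, with a fold change of -1.41. The spread within wild-type thus depended on the yardstick.

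**Figure D4:**
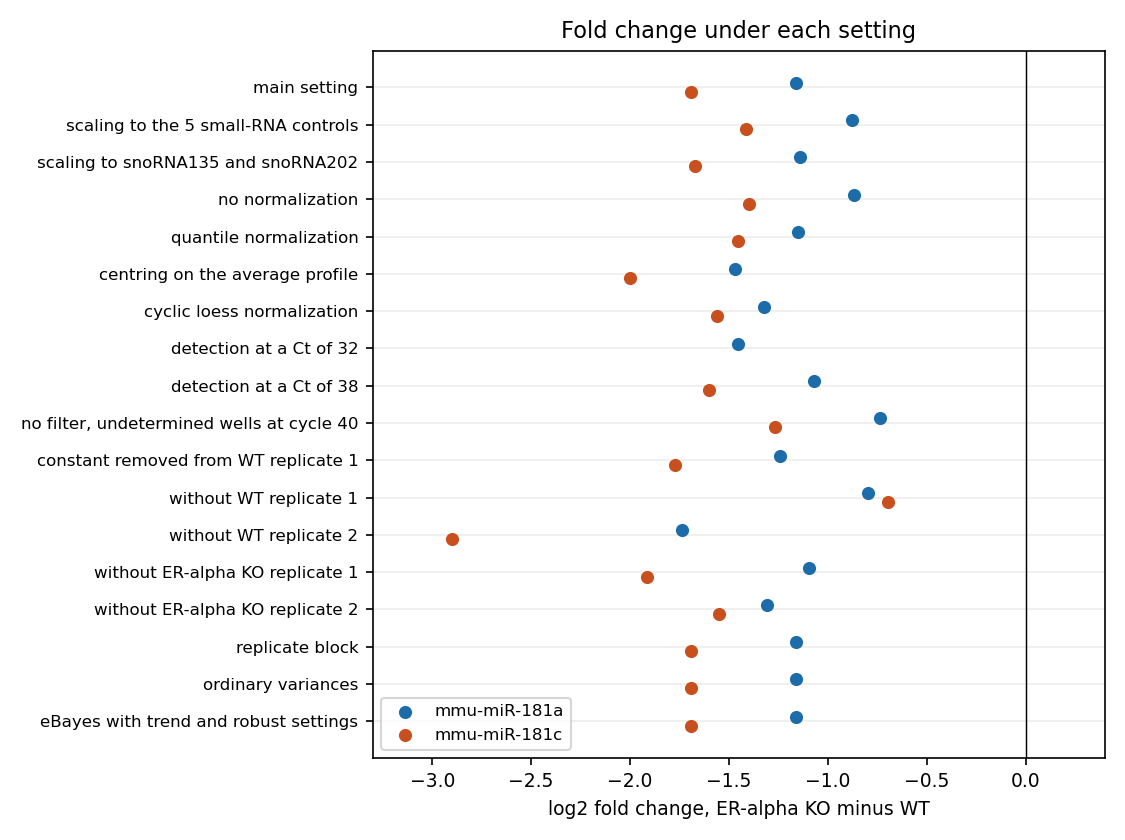
Log2 fold change of ER-alpha knockout over wild-type (x axis) for mmu-miR-181a and mmu-miR-181c under each scaling, filter, sample choice and variance model (y axis). All values are below 0, with mmu-miR-181c from -2.90 without wild-type replicate 2 to -0.70 without wild-type replicate 1. At a Ct limit of 32 mmu-miR-181c was not tested, so its point is missing.

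Because the members share a seed and come from different loci, their ratio within a sample compares how far the 2 assays moved. It needs no normalization by other microRNAs. The level of mmu-miR-181a exceeded that of mmu-miR-181c by 3.80 and 4.38 log2 units in knockout replicates 1 and 2, against 2.93 and 4.19 in wild-type replicates 1 and 2. These are differences between 2 assays whose efficiencies are unknown, so only their change between samples is read. Since reading of the other member's RNA was not tested, that change may not be the change in the ratio of the 2 RNAs. Wild-type replicate 2 fell between the knockout samples, and wild-type replicate 1 was lowest. The mean was 4.09 ± 0.41 in knockout and 3.56 ± 0.89 in wild-type embryos (SD, n = 2 each), a difference of 0.53 that was smaller than the SD in wild-type. Without wild-type replicate 1 the difference was -0.10, so its direction rested on that sample.

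The assays with the most similar pattern over the 4 samples were found by the root mean square difference between deviations from each assay's own mean. Nearest to mmu-miR-181a were the neuronal mmu-miR-124 (0.22 log2 units), mmu-miR-500 (0.23), mmu-miR-99b (0.25), mmu-miR-666-5p (0.30) and mmu-miR-339-5p (0.31), while the median over all other assays was 0.92. Levels of mmu-miR-124 were -1.38 and -1.73 in knockout replicates 1 and 2, against -0.01 and -1.26 in wild-type replicates 1 and 2. Like mmu-miR-181a it was highest in wild-type replicate 1.

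Nearest to mmu-miR-181c was mmu-miR-199a-5p (0.32), a microRNA typical of mesenchyme. Its levels were -5.32 and -5.23 in knockout replicates 1 and 2, against -2.002 and -5.38 in wild-type replicates 1 and 2, so only wild-type replicate 1 stood apart. Next came mmu-miR-103 (0.43), mmu-miR-181a itself (0.56), mmu-miR-124 (0.63) and mmu-miR-665 (0.66), with a median over all other assays of 1.37. The likeness was not mutual in rank, since mmu-miR-181c was the 28th nearest to mmu-miR-181a. All of these neighbours shared the high value in wild-type replicate 1, and with 4 samples the likeness is a description only.

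**Figure D5:**
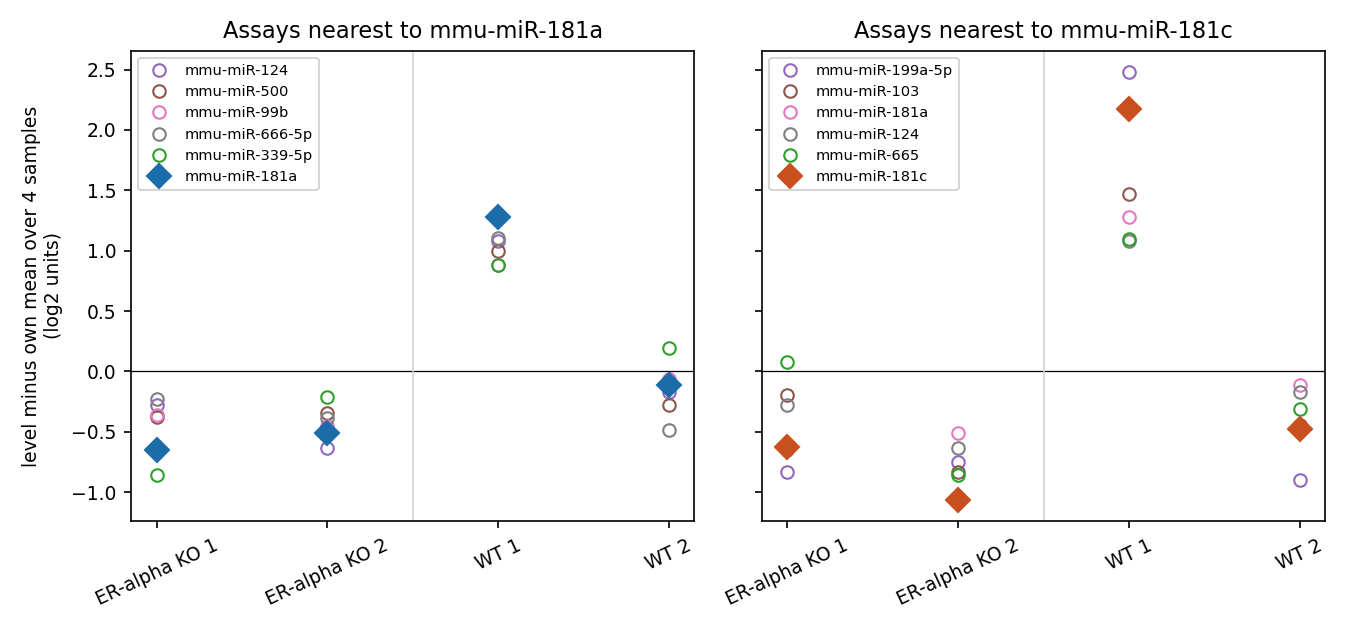
Deviation of each assay from its own mean over the 4 samples (y axis, log2 units) for mmu-miR-181a (left) and mmu-miR-181c (right), drawn as diamonds, and the 5 assays nearest to each, drawn as circles. In both panels the point of wild-type replicate 1 is the highest for every assay.

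Other microRNAs of lymphocytes, brain and differentiating muscle, the settings in which miR-181 is best known, are given beside all 229 tested assays, of which 68.1% had a fold change above 0. Of 8 tested lymphocyte and blood-cell assays (9 on the panel), 0 passed the test, 1 was below 0 and 7 above, with a median log2 fold change of 0.50 beside 0.26 for all tested assays. They included mmu-miR-155, which is induced in activated immune cells, at 0.91, mmu-miR-150 of mature lymphocytes at 0.69, mmu-miR-223 of granulocytes at 0.63 and mmu-miR-146a, a brake on innate immune signalling, at 0.58. Levels of mmu-miR-150 were 1.17 and 1.15 in knockout replicates 1 and 2, against -0.01 and 0.94 in wild-type replicates 1 and 2. The sample that was highest for miR-181a was therefore lowest here. Both knockout levels were above both wild-type levels, as for 76 of the 229 tested assays (33.2%). Without wild-type replicate 1 those 4 fold changes were 0.17, -0.11, 0.06 and 0.18, and the list median was -0.06 beside -0.03 for all.

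Of 9 tested brain-enriched assays (14 on the panel), 0 passed the test, with 3 below 0 and 6 above, and the median was 0.34 beside 0.26 for all tested assays. The largest values were 1.39 for mmu-miR-138, 1.11 for mmu-miR-7b, -0.92 for mmu-miR-124 and 0.49 for mmu-miR-218, a motor-neuron microRNA. Of the 9, 1 (mmu-miR-124) had both knockout levels below both wild-type levels and 3 had both above. Over all 229 tested assays those shares were 6.11% and 33.2%. Without wild-type replicate 1 the fold change of mmu-miR-124 was -0.62. The others were then 0.39 for mmu-miR-138, 1.37 for mmu-miR-7b and 0.03 for mmu-miR-218, and the list median was 0.02 beside -0.03 for all.

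Of 6 tested myoblast-differentiation assays (7 on the panel), 0 passed the test, with 2 below 0 and 4 above and a median of 0.46 beside 0.26. The 4 above 0 were mmu-miR-486 at 0.67, rno-miR-1 at 0.57, mmu-miR-133a at 0.49 and mmu-miR-1 at 0.42. The 2 below 0 were mmu-miR-133b at -0.31 and mmu-miR-499 at -0.02. Both rno-miR-1 and mmu-miR-1 are assays named for miR-1. Without wild-type replicate 1 the first 4 were at -0.43, 0.11, 0.60 and -0.15. The list median was then 0.14 beside -0.03 for all.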

How the data were processed

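Per the labels' protocols, TaqMan real-time PCR ran for 40 cycles on a 7900HT system. Per the file headers, the authors deposited threshold cycles (Ct), with 1 well per microRNA and 4 wells for U6, which were averaged. Threshold, baseline and any normalization by the authors are not given in the sources used here. The file of wild-type replicate 1 holds 39 wells above the last cycle, which were treated as not amplified. Its constant was kept. Lines that name no assay, 1141 in all and all from ER-alpha knockout replicate 2, were not used.

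Levels are minus Ct, centred per sample on the median of the 229 microRNAs with a Ct of 35 or lower in all samples. Centring removes any change shared by all microRNAs. The model had genotype as its single term and was fitted in R 4.3.3 by limma 3.58.1 with moderated variances. Its two-sided p-values were adjusted by Benjamini-Hochberg over all 229. The procedure was tested on simulated data. Tables and plots used Python 3.11.15, pandas 2.3.3 and matplotlib 3.10.9. Only 2 samples per group limit the precision, and the labels do not say that samples came from separate litters, so a p-value here reflects sample-to-sample spread that may be technical.

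The members, the lists and the alternatives were chosen with earlier results of these data known. Named microRNAs are the members, the 5 nearest patterns to each, the controls and up to 4 of each list with the largest absolute fold change. The remaining tested myoblast-differentiation assays are named as well. Alternatives changed the scaling, the detection limit (32, 38 or none, with undetermined wells at cycle 40), the constant, the samples, the replicate block and the variance model. Cyclic loess normalization was added after seeing the data.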

Additional observations from a re-analysis of the deposited data

How the results depend on the processing

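The log2 fold change stayed below 0 in all 17 alternatives for mmu-miR-181a and all 16 for mmu-miR-181c, which was not tested at a Ct limit of 32, and neither member passed the adjusted threshold in any. With all samples kept it ranged from -1.47 to -0.74 for mmu-miR-181a and from -2.001 to -1.27 for mmu-miR-181c. The groups did not overlap in any of those 13 and 12 alternatives. Those with a replicate block or another variance model use the main levels, so they could not differ in this. The members were also chosen for a lower level, so these counts are a description only. The share of all assays without overlap was computed for the main levels only. There 6.11% of the 229 had both knockout levels below both wild-type levels and 33.2% had both above. With cyclic loess normalization, chosen after seeing the data, the log2 fold change was -1.32 for mmu-miR-181a and -1.56 for mmu-miR-181c. Leaving out 1 sample gave -1.74 to -0.79 and -2.90 to -0.70. A fit that leaves 1 sample in a group assumes that it varies like the other group. Only the fit with a replicate block called any microRNA, namely 1, which is not in the family, against 0 in the main analysis and in each other alternative. It left the members' fold changes as they were. Deviations of samples with the same number correlated at r = 0.37 across the 229 assays. The samples were not taken as paired, since there are only 2 numbers and the labels do not explain them. The genotype difference in the ratio of mmu-miR-181a to mmu-miR-181c was -0.10 without wild-type replicate 1 and up to 1.16 without wild-type replicate 2. With Ct values of 32.19 to 34.01, mmu-miR-181c was close to the detection limit of 35.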
